A study of Homo sapiens with 38 samples.

Results

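The genes of bone morphogenetic protein (BMP) signalling described here were 9 named rows of the count table: the ligands BMP2, BMP4 and BMP7, the target genes ID1, ID2 and ID3, and the inhibitors BAMBI, SMAD6 and SMAD7. They were taken by symbol out of 57133 gene rows, and all 9 were among the 16674 genes that passed the filter on low counts. The cells were Shef6, an established human embryonic stem cell line, adapted to feeder-free naive culture on serum coating, and every library held polyadenylated RNA read as 3′ tags. Naive cells in PXGL medium (N2B27 with the MEK inhibitor PD0325901, the tankyrase inhibitor XAV939, the PKC inhibitor Gö6983 and LIF) were sampled at day 0, either on a coating of fetal bovine serum or on the basement membrane extract Geltrex. Cells plated on Geltrex then left the naive state in unsupplemented N2B27 or in E8, sampled at days 2, 3, 4, 6 and 8, or in mTeSR, sampled at days 4, 6 and 8; E8 and mTeSR are primed media that supply FGF and TGFβ or Activin signals. A second experiment (Ex2) held naive cells on Geltrex and, at day 4, cells in N2B27, in N2B27 with XAV939 (XAV) and in N2B27 with FGF2, XAV939 and Activin A (FAX). Each of the 19 groups had 2 libraries, 38 in all, of which 30 belonged to the first experiment (Ex1) and 8 to Ex2. All came from 1 line, and the labels did not say whether replicates were separate cultures (the study's legends mostly call them technical and once biological replicates), so that p-values measure only the spread between these libraries. The naive libraries of Ex2 were labelled day 0 although their library names carry day 4.

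BMP ligands are secreted dimers that bring together type I and type II receptor kinases, which phosphorylate SMAD1, SMAD5 and SMAD9. These enter the nucleus with SMAD4 and switch on direct targets, among which the ID genes, encoding helix-loop-helix proteins that block the DNA binding of their partners, are the most widely used readout. The pathway also induces its own brakes: SMAD6 and SMAD7 are inhibitory SMADs, the latter shared with the TGFβ and Activin branch, and BAMBI is a membrane pseudoreceptor that lacks the kinase domain. In primed human pluripotent cells BMP is known for driving exit towards amnion-, mesoderm- and trophoblast-like fates.

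In GENCODE v44 on GRCh38, BMP2 lies at chr20:6767686-6780246 on the plus strand, BMP4 at chr14:53949736-53958761 on the minus strand and BMP7 at chr20:57168753-57266641 on the minus strand. ID1 is at chr20:31605283-31606515 (plus), ID2 at chr2:8678845-8684461 (plus) and ID3 at chr1:23557926-23559501 (minus). BAMBI is at chr10:28677510-28682932 (plus), SMAD6 at chr15:66702236-66782849 (plus) and SMAD7 at chr18:48919853-48950965 (minus). An annotated gene on the opposite strand overlaps BMP4 (ENSG00000287156), BMP7 (BMP7-AS1) and ID2 (ID2-AS1), and a gene on the same strand overlaps SMAD6 (ENSG00000274995). These overlaps are of whole gene spans, not of the 3′ ends that the libraries read. The strand setting of the counting is not given in the sources used here. Whether reads of these pairs were kept apart is therefore not known.

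Promoters from RefSeq (GRCh38.p14; 250 bases before the start to 50 after it, 5′ to 3′ along the gene) are shown for SMAD6, the only member with the first motif below, for BAMBI, with the most matches of the second, and for ID3, the member with the largest rise. BMP2 and BMP7 had no entry. Capitals mark the palindromic SMAD element GTCTAGAC and the GC-rich SMAD motif GGCGCC, both of which read the same on either strand and do not overlap each other. SMAD6 is at chr15:66701986-66702285 (plus), BAMBI at chr10:28677271-28677570 (plus) and ID3 at chr1:23559452-23559751 (minus).

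SMAD6: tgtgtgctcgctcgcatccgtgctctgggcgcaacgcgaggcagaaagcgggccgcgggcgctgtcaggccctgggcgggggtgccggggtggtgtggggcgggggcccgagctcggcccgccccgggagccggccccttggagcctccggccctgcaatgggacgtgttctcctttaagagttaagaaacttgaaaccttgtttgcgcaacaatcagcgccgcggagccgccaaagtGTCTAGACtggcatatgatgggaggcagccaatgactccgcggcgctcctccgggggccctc

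BAMBI: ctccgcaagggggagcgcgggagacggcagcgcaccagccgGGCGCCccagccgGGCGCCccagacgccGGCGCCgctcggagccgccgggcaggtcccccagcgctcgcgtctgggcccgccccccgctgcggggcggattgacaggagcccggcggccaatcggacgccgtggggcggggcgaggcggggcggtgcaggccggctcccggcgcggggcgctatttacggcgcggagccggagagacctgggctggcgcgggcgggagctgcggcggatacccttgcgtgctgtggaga

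ID3: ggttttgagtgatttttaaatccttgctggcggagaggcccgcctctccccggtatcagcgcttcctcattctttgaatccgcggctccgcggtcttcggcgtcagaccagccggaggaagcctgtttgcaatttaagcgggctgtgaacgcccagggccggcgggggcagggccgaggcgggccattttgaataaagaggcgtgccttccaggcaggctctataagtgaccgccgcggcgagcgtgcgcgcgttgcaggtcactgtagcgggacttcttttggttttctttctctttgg

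GTCTAGAC occurred 1 time in the SMAD6 window, starting 12 bases before the gene start, and in 71 of 35116 promoters of the same length (0.202%). GGCGCC occurred 3 times in the BAMBI window, the first starting 209 bases before the gene start, and in 6748 of those promoters (19.2%). The ID3 window held neither string. Of the other windows, 1 of 3 BMP4 promoters held GGCGCC 2 times. These are matches of letters in short windows, and binding was not measured.

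The libraries held 3038046 to 5612354 counts (median 4427277), with 21018 to 25447 genes detected, so that 3 counts correspond to 0.520 to 1.06 CPM, the counts of a gene scaled to a common library size. Levels below are CPM scaled by TMM factors, given as mean ± SD (n = 2) or per library. Since each transcript gives a tag at its 3′ end, CPM is used here to follow a gene across samples, not to rank genes against each other. Naive markers fell from a summed 1135 to 1523 CPM in naive cells to 339 to 452 CPM at day 8 in the 3 media, and primed or formative markers rose from at most 24.1 CPM to 555 to 680 CPM. Of 8 trophectoderm markers the sum rose from 34.1 to 46.2 CPM in naive cells to 393 to 563 CPM at day 8, most of it KRT18, with VGLL1 at 0 in every day 8 library. By a score for the main direction in which replicates differed, 4 libraries stood apart: both of E8 day 2, replicate 2 of N2B27 day 2 and replicate 1 of E8 day 3.

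Departure from the naive state changed most of the 9 genes in every medium, and every called gene but BMP2 was higher than in naive cells. A gene was called where the edgeR quasi-likelihood test gave a Benjamini-Hochberg adjusted p below 0.05 over all 16674 genes and the log2 fold change exceeded 1 in size. In N2B27, 5 of 9 members were called at day 2 against a background of 16.2% of all genes. That count was 7 on day 3 (background 15.6%), day 4 (18.4%) and day 6 (23.1%), and 8 on day 8 (23.9%). In E8, 5 were called at day 2 (24.6% of all genes) and 7 on each later day, where the background was 17.8% (day 3), 20.8% (day 4), 23.3% (day 6) and 27.5% (day 8). In mTeSR, 6 were called at day 4 (19.8%), 7 at day 6 (22.5%) and 7 at day 8 (25.1%). At day 4 of Ex2, 6 were called in XAV (17%) and 7 in FAX (17.1%). The median log2 fold change of the members at day 8 was 3.39 (N2B27), 1.58 (E8) and 2.29 (mTeSR), against -0.03, 0.0024 and -0.02 over all genes. The 15 comparisons share the same 6 naive libraries, so their counts are not independent. The members were chosen with earlier results of these data known, so these counts and medians do not test them as a set. In bulk RNA, fewer cells of a type and less RNA per cell cannot be told apart. BMP7, ID3 and SMAD6 were called higher in all 15, BMP2 was called lower in 14, and BAMBI was called in 1, N2B27 at day 8. Against the naive libraries of Ex2 alone, BAMBI (log2 1.45 and 1.42) was also called in XAV and FAX, and ID2 (1.03) in XAV. More calls were lost than gained when each group was set against naive cells from its own experiment. Member calls over the 15 comparisons then went from 100 to 92. ID1 lost its call in E8 (days 3, 4 and 8) and mTeSR (day 8). SMAD7 lost its call in N2B27 (days 6 and 8), E8 (days 3, 4 and 6) and mTeSR (days 4 and 6).

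**Figure D1:**
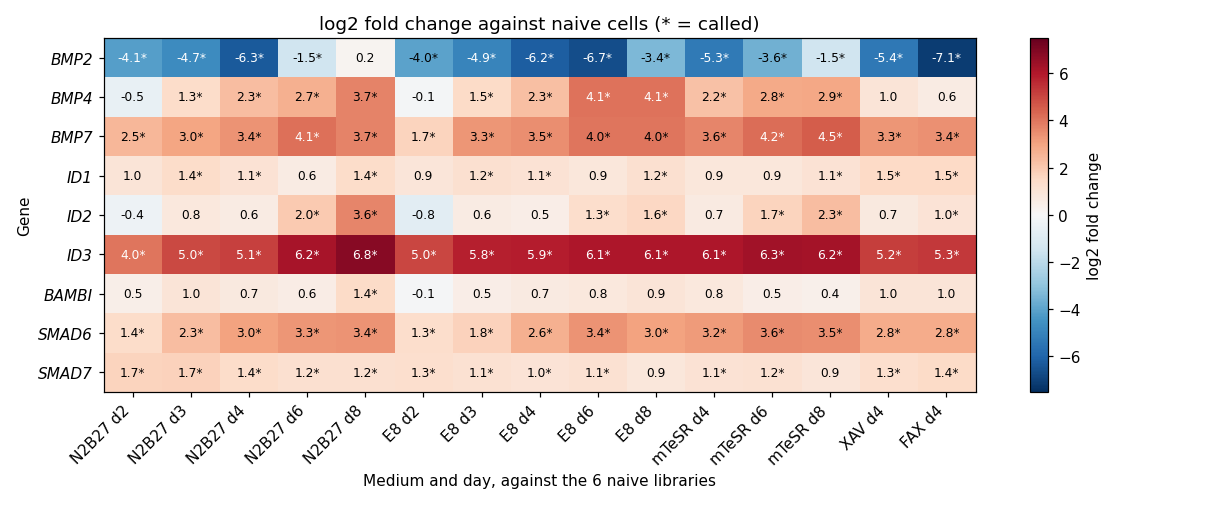
Fitted log2 fold changes of the 9 genes (rows) in each medium and day (columns) against the 6 naive libraries, with an asterisk on called values. ID3 runs from 4.0 to 6.8, BMP2 is negative in every column but N2B27 day 8, and BMP4 in XAV and FAX is 0.98 and 0.63 where the other day 4 columns are above 2.

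Among the ligands, BMP2, which in the embryo patterns extraembryonic and mesodermal tissue, was the only member called lower than in naive cells. Naive libraries gave 55.3 and 53.7 CPM on serum coating, 43.1 and 39.5 on Geltrex, and 12.3 and 22.4 on Geltrex in Ex2. By day 2 it was 2.20 and 2.14 CPM in N2B27 and 2.48 and 2.30 in E8. At day 4 each library held 6 or fewer BMP2 counts in all 6 groups, with 1 count in each FAX library. No library outside the naive state overlapped the naive range until day 6. Over the libraries of each level, BMP2 was 86.1-fold lower in N2B27 at day 4 than in naive cells (9 against 1024 counts, 95% counting interval 45.2 to 189) and 163-fold lower in FAX (2 counts, interval 44.9 to 1346). The fitted log2 change in FAX was -7.13, and -6.01 against the lower naive libraries of Ex2 alone.

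BMP2 then came back, to a different level in each medium. N2B27 gave 11.7 and 15.1 CPM at day 6 and 48.9 and 39.6 at day 8. In mTeSR it was 2.65 and 3.66 CPM at day 6 and 12.2 and 14.8 at day 8. In E8 it was 0 and 0.683 CPM at day 6 and 3.18 and 4.24 at day 8. The ranges of the 3 media did not overlap at either day. At day 8 in N2B27 the level lay inside the naive range, and the fitted log2 difference from naive cells was 0.21 ± 0.28 (SE, adjusted p = 0.574), or -0.10 against the naive libraries of Ex1 alone.

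BMP4, the ligand most often used to drive pluripotent cells into amnion- and mesoderm-like fates, was called higher than in naive cells from day 3 in the media of Ex1. The 6 naive libraries ran from 10.6 to 14.0 CPM (median 12.8), with the 3 naive groups overlapping. At day 2 BMP4 was 7.80 and 9.49 CPM in N2B27, below the naive range (log2 -0.54 ± 0.19, adjusted p = 0.025, short of the fold threshold), and 13.4 and 9.52 in E8, not called. It then rose in N2B27 through 32.1 ± 4.04 CPM at day 3, 54.3 ± 1.84 at day 4 and 79.4 ± 2.31 at day 6 to 164 ± 10.9 at day 8. E8 followed N2B27 up to day 4 (61.0 ± 5.99 CPM) and then reached 216 and 213 CPM at day 6 and 215 and 206 at day 8. mTeSR stayed lower, at 91.4 and 89.9 CPM at day 6 and 103 and 87.3 at day 8. The log2 fold change against naive cells at day 8 was 3.70 ± 0.13 (SE, adjusted p = 2.1e-22) in N2B27, 4.07 ± 0.13 (adjusted p = 1.1e-23) in E8 and 2.92 ± 0.13 (adjusted p = 6.8e-19) in mTeSR.

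BMP7 is a ligand of the subfamily of BMP5 and BMP6. It lay between 1.08 and 2.49 CPM in the naive libraries, or 5 to 10 counts each, and was called higher already at day 2. At day 2 N2B27 held 9.51 ± 0.697 CPM and E8 held 5.44 ± 0.192, followed by 21.0 ± 2.12, 18.9 ± 1.96 and 21.3 ± 1.48 CPM at day 4 for N2B27, E8 and mTeSR. At day 8 mTeSR held 38.8 and 39.5 CPM, above the 23.6 and 21.9 of N2B27 and the 21.7 and 33.4 of E8. That excess over N2B27 passed the adjusted p but not the fold threshold (log2 difference 0.79 ± 0.18, adjusted p = 0.0041).

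**Figure D2:**
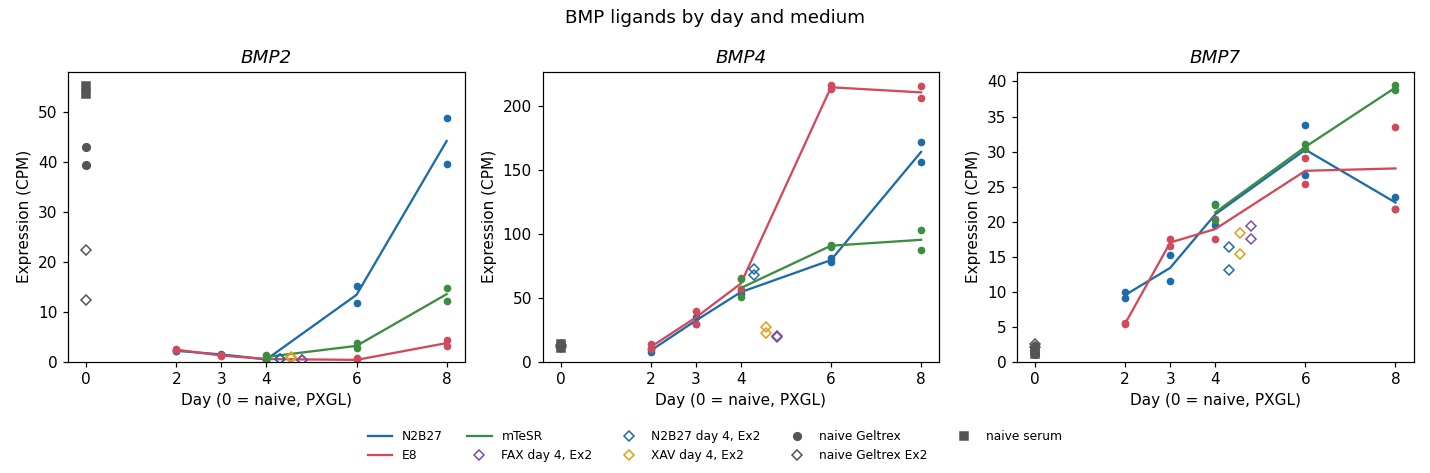
CPM of BMP2, BMP4 and BMP7 against day: lines join the means of Ex1, filled points are its libraries, and open diamonds are Ex2, drawn slightly to the right of day 4. BMP2 drops from 39.5 to 55.3 CPM in the naive libraries of Ex1 and returns mainly in N2B27, while BMP4 in E8 is above 200 CPM from day 6 and its XAV and FAX points lie below N2B27.

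At day 8 all 3 ID genes were called higher than in the pooled naive libraries in each medium, by very different amounts. The ID1 calls in E8 and mTeSR were lost against the naive libraries of Ex1 alone. ID3 was nearly silent in naive cells, with 4 to 9 counts and 1.11 to 1.62 CPM in each library, and was the member that rose most. At day 2 it was 27.6 and 18.7 CPM in N2B27 and 47.4 and 44.3 in E8. At day 8 it stood at 169 and 154 CPM in N2B27, 91.6 and 102 in E8 and 111 and 102 in mTeSR. No library of any medium overlapped the naive range, and the log2 fold change grew from 4.03 ± 0.25 (adjusted p = 1.0e-14) in N2B27 at day 2 to 6.82 ± 0.20 (adjusted p = 2.8e-24) at day 8. In E8 and mTeSR most of the rise was over by day 4, at 85.5 ± 1.84 and 95.5 ± 1.34 CPM, against 61.3 ± 10.0 in N2B27.

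ID2 was not called in Ex1 media before day 6 and rose mostly after day 4. The naive libraries ran from 7.85 to 13.5 CPM. At day 2 E8 lay below them at 5.66 and 5.91 CPM (log2 -0.82 ± 0.28, adjusted p = 0.017), short of the fold threshold, and N2B27 at day 4 of Ex1 gave 13.2 and 11.6. N2B27 (17.7 and 18.0) and E8 (14.4 and 16.3) at day 3, and mTeSR (16.2 and 16.6) at day 4, lay above the naive range. These 3 groups passed the adjusted p but not the fold threshold. By day 6 N2B27 held 40.4 ± 1.83 CPM, mTeSR 33.0 ± 0.296 and E8 25.1 ± 3.09. At day 8 the N2B27 libraries reached 150 and 104 CPM, against 32.2 and 29.0 in E8 and 53.8 and 46.5 in mTeSR, with no overlap between media. In FAX at day 4 ID2 was called at 19.9 and 22.5 CPM (log2 1.05), below the fold threshold without replicate 2 of FAX (0.96) or replicate 1 of the Ex2 naive cells. Its log2 fold change against naive cells at day 8 was 3.63 ± 0.17 (adjusted p = 5.3e-19) in N2B27, 1.58 ± 0.19 (adjusted p = 1.2e-08) in E8 and 2.29 ± 0.18 (adjusted p = 1.3e-12) in mTeSR.

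ID1 had a sizeable naive level that differed between the naive groups. Naive libraries gave 83.7 and 84.1 CPM on serum, 60.6 and 58.5 on Geltrex, and 17.1 and 24.9 on Geltrex in Ex2. All later libraries lay between 80.6 and 162 CPM, of which 1, in N2B27 at day 6, fell inside the naive range. Called changes were small, from a log2 fold change of 1.06 ± 0.26 (mTeSR day 8, adjusted p = 0.0012) to 1.48 ± 0.25 (XAV day 4, adjusted p = 1.6e-05). Against the naive libraries of the same experiment alone, the calls in E8 at days 3, 4 and 8 and in mTeSR at day 8 fell below the fold threshold (log2 0.85, 0.74, 0.88 and 0.72), while the difference in XAV and FAX grew to 2.87 and 2.86. Without replicate 1 or 2 of the Ex2 naive cells, ID1 also fell below the threshold in N2B27 at day 4 (0.91 and 0.96), E8 at day 4 (0.91 and 0.95) and mTeSR at day 8 (0.89 and 0.92). The same held without replicate 2 of N2B27 day 4 in Ex2, replicate 2 of E8 day 4 (0.99) or replicate 1 of mTeSR day 8 (0.99). Fitted on the compared libraries alone, ID1 was not called in E8 at days 3 and 4 or in mTeSR at day 8 (adjusted p = 0.059, 0.064 and 0.065, edgeR). Against the naive libraries on Geltrex only, it was also called in N2B27 at day 6 (1.04), the later group with the lowest mean (85.9 CPM). The other groups not called against the pooled naive libraries lay higher, at 101 to 109 CPM. This dependence on the naive libraries was therefore not particular to N2B27 at day 6.

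**Figure D3:**
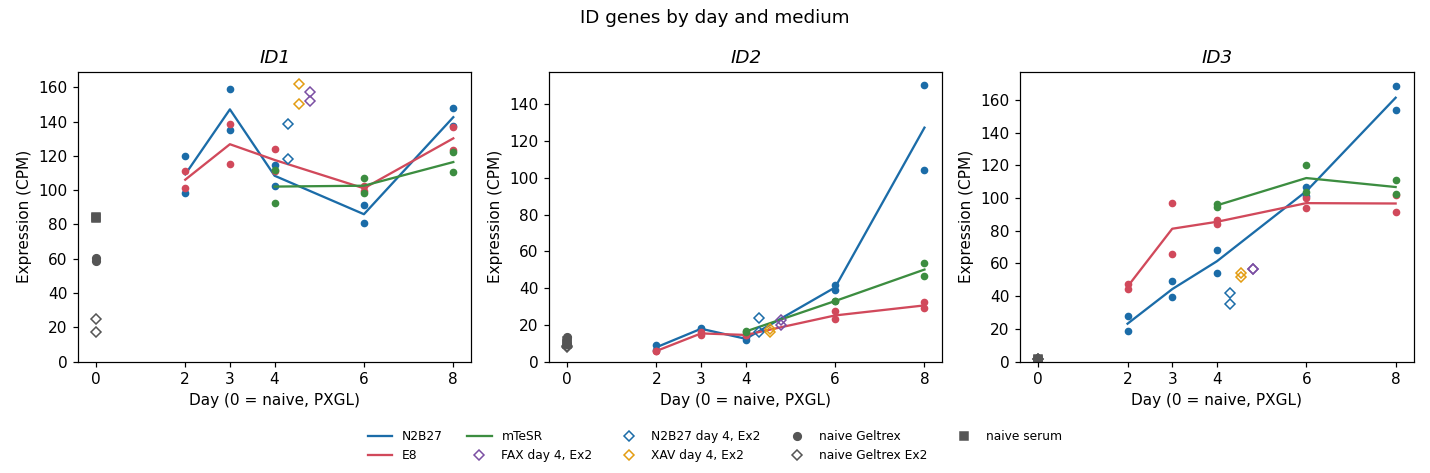
CPM of ID1, ID2 and ID3 against day, drawn as for the ligands, with grey symbols for the naive libraries. ID3 leaves a level below 2 CPM by day 2, ID2 separates by medium at day 8 (127 CPM in N2B27 against 30.6 in E8), and the naive ID1 points spread from 17.1 to 84.1 CPM.

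Of the inhibitors, SMAD6 and SMAD7 rose early and BAMBI moved little. SMAD6, which blocks BMP receptors and SMAD1 in particular, was 2.40 to 4.10 CPM in the naive libraries. It was 8.40 and 9.73 CPM in N2B27 at day 2, 32.8 and 38.5 at day 4 and 40.5 and 32.9 at day 8. E8 held 19.2 and 24.5 CPM at day 4, below N2B27 of Ex1 without a call (log2 -0.70 ± 0.20, adjusted p = 0.022) and close to the 20.3 and 20.7 of N2B27 in Ex2, and reached 38.9 and 33.5 at day 6, and mTeSR held 44.2 and 37.9 at day 6. No later library overlapped the naive range. The log2 fold change against naive cells was 3.39 ± 0.23 (adjusted p = 2.4e-14) in N2B27, 3.01 ± 0.24 (adjusted p = 1.0e-12) in E8 and 3.46 ± 0.24 (adjusted p = 2.7e-14) in mTeSR at day 8. The call in E8 at day 2 was lost without replicate 2 of that group (log2 0.83, adjusted p = 0.168).

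SMAD7 was highest at days 2 and 3 in N2B27, with 50.4 and 46.5 CPM and then 52.4 and 46.7, and declined to 33.9 and 36.3 at day 8. The naive libraries gave 17.0 to 18.9 CPM in Ex1 and 7.51 and 8.85 in Ex2, below every later library. E8 lay under N2B27 at day 3, at 34.7 and 31.0 CPM, a log2 difference of -0.59 ± 0.13 (adjusted p = 0.0064) that did not reach the fold threshold. By day 8 SMAD7 in E8 and mTeSR was above naive cells by a log2 fold change of 0.86 ± 0.19 and 0.90 ± 0.20, not called, though in mTeSR it was called against the naive libraries on Geltrex only (1.03). Against the naive libraries of Ex1 alone, the calls in N2B27 (days 6 and 8), in E8 (days 3, 4 and 6) and in mTeSR (days 4 and 6) also fell below the fold threshold, at log2 0.79 to 0.98. At day 4 the calls in E8 and mTeSR were lost too without replicate 1 (0.93 and 0.97) or 2 (0.96 and 0.99) of the Ex2 naive cells, and that in mTeSR without its own replicate 1 (0.95).

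BAMBI was 7.51 to 17.0 CPM in naive cells and 11.8 to 38.3 in all others. Against the pooled naive libraries it was called in N2B27 at day 8, at 38.3 and 33.2 CPM (log2 fold change 1.42 ± 0.17, adjusted p = 2.5e-08), or by 1.27 against those of Ex1 alone. Against the naive libraries of Ex2 alone it was called in XAV (log2 1.45, adjusted p = 2.7e-07) and FAX (1.42, adjusted p = 4.8e-07). E8 at day 8 gave 24.0 and 27.3 CPM (log2 0.94 ± 0.18, adjusted p = 5.5e-05), short of the fold threshold but past it against the naive libraries on Geltrex only (1.11), and without replicate 1 of that group (1.04) or of the naive cells on serum (1.03). mTeSR gave 17.1 and 17.4 CPM at day 8 (log2 0.37 ± 0.20, adjusted p = 0.133).

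**Figure D4:**
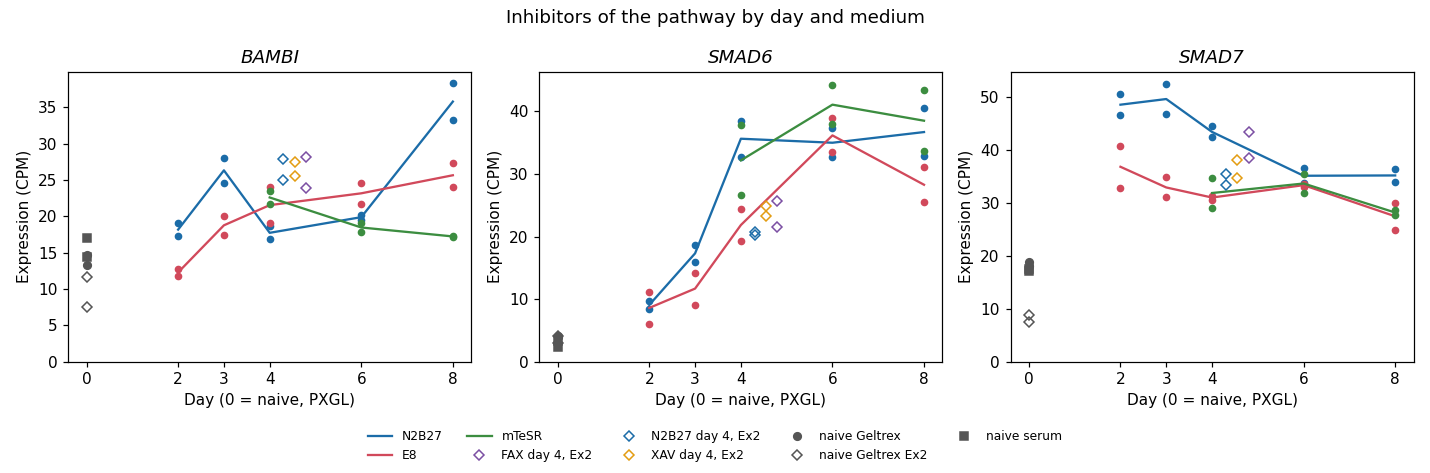
CPM of BAMBI, SMAD6 and SMAD7 against day, drawn as for the ligands. SMAD6 climbs from 2.9 to 4.0 CPM in the naive groups to 41.1 in mTeSR at day 6, SMAD7 is highest in N2B27 at days 2 and 3, and BAMBI is highest in N2B27 at day 8 (35.8 CPM).

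Between N2B27, E8 and mTeSR in Ex1 at equal days, no member was called up to day 4, and the ligands BMP2 and BMP4, the target ID2 and the inhibitor BAMBI were called later. For E8 against N2B27, 0 of 9 were called at day 2 (4.55% of all genes called), at day 3 (1.68%) and at day 4 (2.49%). For mTeSR at day 4, 0 of 9 were called against N2B27 (1.58%) and 0 against E8 (0.084%). With the adjusted p alone, 2, 2 and 3 members passed for E8 against N2B27 at days 2, 3 and 4. For mTeSR at day 4, 2 passed against N2B27 and 0 against E8. These were ID3 (higher than in N2B27) and SMAD7 (lower) in all 4 comparisons with N2B27, and SMAD6 (lower) in E8 at day 4. At an unadjusted p below 0.05, 4, 4 and 3 members passed for E8 against N2B27 at days 2, 3 and 4, 3 for mTeSR against N2B27 and 1 for mTeSR against E8. DESeq2 called 1 of these, ID3 in E8 at day 2, and 0 in the other 4 comparisons. ID3 was higher in E8 than in N2B27 by a log2 difference of 0.97 ± 0.18 at day 2 (adjusted p = 0.00057) and 0.87 ± 0.16 at day 3 (adjusted p = 0.00061), both just under the fold threshold. Of the 4 libraries that stood apart, 3 entered the day 2 comparison and the other, replicate 1 of E8, entered day 3. Without that one the day 3 difference of ID3 was 1.10 and was called, as it was without replicate 2 of N2B27 day 3 (1.05). The day 2 difference was called without replicate 1 of N2B27 day 2 (1.29) or replicate 2 of E8 day 2 (1.04), under another scaling, RLE (1.02), and with the library score as a covariate (1.15). Without all 4 libraries, which removes E8 at day 2, the day 3 difference was 1.12 and called.

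At day 6, E8 against N2B27 called 2 of 9 (5.28% of all genes). BMP4 was higher in E8 (log2 1.43 ± 0.13, adjusted p = 2.9e-09) and BMP2 lower, at 3 counts over both E8 libraries against 131 in N2B27, 38.2-fold lower with a counting interval of 12.8 to 188. At day 8 the same comparison called 2 of 9 (7.29%), BMP2 (log2 -3.58 ± 0.26, adjusted p = 1.4e-11) and ID2 (-2.05 ± 0.17, adjusted p = 8.6e-11), both lower in E8. BMP4 at day 8 no longer differed past the fold threshold (log2 0.36 ± 0.13, adjusted p = 0.040). ID3 was lower in E8 by log2 -0.74 ± 0.14 (adjusted p = 0.00031), a reversal of its order at days 2 and 3, though neither was called.

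mTeSR against N2B27 called 1 of 9 at day 6 (2.62% of all genes), BMP2, and 3 of 9 at day 8 (3.8%). Those at day 8 were BMP2 (log2 -1.71 ± 0.23, adjusted p = 3.6e-06), ID2 (-1.34 ± 0.16, adjusted p = 7.6e-07) and BAMBI (-1.05 ± 0.17, adjusted p = 6.1e-05), all lower in mTeSR. The BAMBI difference fell to -0.95 without replicate 1 of N2B27 day 8. BMP4 was lower in mTeSR by log2 -0.78 ± 0.13 (adjusted p = 0.00012) and ID3 by -0.59 ± 0.14 (adjusted p = 0.0053), neither past the fold threshold. mTeSR against E8 called 2 of 9 at day 6 (1.1%) and 2 of 9 at day 8 (5.31%), each time BMP2, higher in mTeSR, and BMP4, lower in mTeSR. At day 8 these were 1.87 ± 0.30 (adjusted p = 4.5e-05) and -1.14 ± 0.13 (adjusted p = 2.0e-07). The day 6 call of BMP2 rested on 29 against 3 counts (9.01-fold, counting interval 2.79 to 46.2) and was lost without replicate 1 of E8 day 6 (adjusted p = 0.107) or replicate 2 of mTeSR day 6 (0.055). BMP2 and BMP4 therefore ranked the media differently at day 8: N2B27, mTeSR, E8 for BMP2 and E8, N2B27, mTeSR for BMP4, with no overlap between neighbours in either order.

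Hypoblast or endoderm and primitive streak or mesoderm markers ranked the media at day 8 as BMP2 and ID2 did, and amnion markers did not. The 6 hypoblast or endoderm markers summed to 181 to 206 CPM in N2B27 at day 8, 115 to 125 in mTeSR and 20.7 to 25.3 in E8, against 0.683 to 4.21 in naive cells, and all 6 exceeded 3 counts in a library of each day 8 group. The 5 primitive streak or mesoderm markers summed to 221 to 293, 147 to 193 and 35.2 to 37.9 CPM in the same order, with MESP1 and FOXF1 at 0 in both E8 libraries. The 6 amnion markers summed to 27.8 to 38.1 CPM in N2B27, 10.9 to 15.5 in mTeSR and 17.0 to 17.4 in E8, with VTCN1 at 0 in both N2B27 libraries. Their part in the BMP2 and ID2 results was not tested.

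From day 4 to day 8 of Ex1, N2B27 changed more of the 9 genes past the threshold than the primed media did. N2B27 called 5 (7.5% of all genes), E8 3 (8.28%) and mTeSR 2 (9.25%), all higher at day 8. BMP2 and ID2 were called in all 3 media, BMP4 in N2B27 and E8, and ID3 and BAMBI in N2B27. In N2B27, BMP2 went from 5 to 441 counts (99.4-fold, counting interval 42.3 to 308), ID2 rose by log2 3.35 ± 0.18 (adjusted p = 3.0e-15), BMP4 by 1.59 ± 0.13 and ID3 by 1.39 ± 0.14. BAMBI rose by log2 1.01 ± 0.16 (adjusted p = 1.4e-05), at the threshold, and was 0.91 without replicate 1 of N2B27 day 8 and 0.94 without replicate 1 of N2B27 day 4. It also lost its call without replicate 1 of E8 day 2, a library outside this comparison, without the 4 libraries that stood apart, and with no filter on low counts. In E8, BMP2 went from 5 to 35 counts (7.20-fold, interval 2.81 to 23.5), BMP4 rose by log2 1.79 ± 0.13 and ID2 by 1.08 ± 0.19, the latter under the fold threshold with the library score as a covariate (0.95) and just under it without replicate 1 of E8 day 8. In mTeSR, BMP2 rose by log2 3.82 ± 0.40 and ID2 by 1.61 ± 0.19, while BMP4 rose by 0.73 ± 0.14, under the fold threshold. SMAD6 and SMAD7 were called in none of the 3 media by edgeR, where SMAD7 in N2B27 alone passed an unadjusted p below 0.05, and in none by DESeq2.

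The size of this change was compared between media by interaction terms. E8 differed from N2B27 for 3 of 9 genes (1.43% of all genes): ID2 (log2 -2.27 ± 0.27, adjusted p = 1.7e-06), ID3 (-1.22 ± 0.20, adjusted p = 0.00039) and BMP2 (-3.77 ± 0.96, adjusted p = 0.026), each rising less in E8. The BMP2 term was lost when any of 6 of the 8 libraries involved was left out, with adjusted p from 0.052 to 0.338. mTeSR differed from N2B27 for 3 of 9 (1.69%): ID2 (-1.74 ± 0.26, adjusted p = 7.9e-05), ID3 (-1.23 ± 0.21, adjusted p = 0.00032) and BAMBI (-1.40 ± 0.24, adjusted p = 0.00038). Both contrasts share the N2B27 libraries. Over days 2 to 8, a joint test of whether the course differed between N2B27 and E8 called 5 of 9 (11% of all genes): BMP2, BMP4, ID2, ID3 and BAMBI, with adjusted p from 2.5e-06 to 0.016. The adjusted p of BMP7, ID1, SMAD6 and SMAD7 was 0.109, 0.320, 0.250 and 0.298.

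In Ex2, BMP4 was the only member called between day 4 media. The N2B27 libraries held 67.7 and 72.8 CPM of BMP4, those in XAV 27.4 and 22.1, and those in FAX 19.1 and 19.9, against 11.6 and 13.3 in naive cells of Ex2. All 4 XAV and FAX libraries lay below all N2B27 libraries at day 4 of either experiment (53.0 to 72.8 CPM) and above all naive ones. XAV called 1 of 9 against N2B27 (0.57% of all genes), BMP4, with a log2 difference of -1.51 ± 0.15 (adjusted p = 8.7e-08). FAX likewise called 1 of 9 (0.336%), with -1.85 ± 0.16 (adjusted p = 1.3e-08), the smallest adjusted p of any member between the day 4 media of Ex2. FAX against XAV called 0 of 9 (0.012%), 0 at an unadjusted p below 0.05 and 0 by DESeq2. The difference in BMP4 was -0.34 ± 0.17 there (adjusted p = 0.902), which does not show that FAX and XAV gave the same level. The parts of FGF2 and Activin A cannot be told apart from each other, since neither was added alone in these libraries.

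No other member was called in XAV or FAX against N2B27. BMP2 in FAX rested on 2 counts against 4 in N2B27 (0.493-fold, counting interval 0.0446 to 3.44), which leaves its direction undecided. In XAV and FAX, ID1 was 150 to 162 CPM against 118 and 138 in N2B27 of Ex2, and ID3 was 52.0 to 56.8 against 35.2 and 42.1. At an unadjusted p below 0.05, 3 of 9 members passed in each medium, BMP4 (lower) and ID1 and ID3 (higher), of which the last 2 missed the adjusted threshold (adjusted p from 0.128 to 0.551). SMAD6, SMAD7 and BAMBI differed from N2B27 by log2 -0.02 to 0.25. Against naive cells, BMP4 was above the naive level in XAV by log2 0.98 ± 0.15 (adjusted p = 4.7e-06) and in FAX by 0.63 ± 0.17 (adjusted p = 0.0029), neither called, and by 0.98 and 0.64 against the naive libraries of Ex2 alone. The first was called without replicate 2 of XAV (1.12), of the naive cells on serum (1.01) or of the Ex2 naive cells (1.01).

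**Figure D5:**
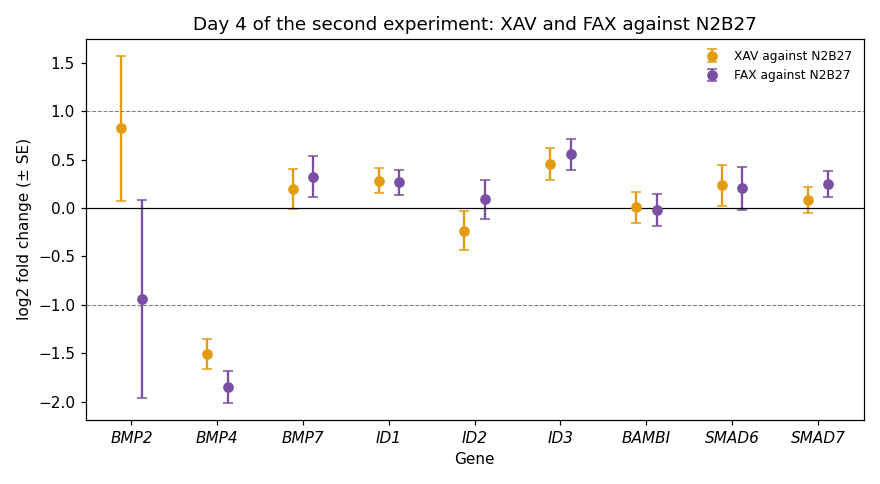
log2 difference (± SE) of the 9 genes between XAV or FAX and N2B27 at day 4 of Ex2, with the fold threshold dashed. BMP4 alone lies beyond it with an error bar clear of it, at -1.51 and -1.85, and the wide BMP2 bars rest on 9 counts or fewer per medium.

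The naive libraries were not interchangeable for all members. Between serum coating and Geltrex in Ex1, 0 of 9 were called (0.048% of all genes), with 2 at an unadjusted p below 0.05 (BMP2 and ID1, both lower on Geltrex) and 0 by DESeq2. The ID1 difference was log2 -0.50 ± 0.14 (adjusted p = 0.087). Between the experiments, naive cells on Geltrex called 3 of 9 (4.67%), all lower in Ex2: ID1 (-1.48 ± 0.17, adjusted p = 2.3e-07), BMP2 (-1.23 ± 0.22, adjusted p = 0.00025) and SMAD7 (-1.16 ± 0.19, adjusted p = 7.2e-05). The BMP2 difference was -0.88 without replicate 1 of the Ex2 naive cells. N2B27 at day 4 called 0 of 9 between experiments (1.01%), with 7 at an unadjusted p below 0.05 and 0 by DESeq2. With the adjusted p alone 3 passed and missed only the fold threshold. These were ID3 (38.6 CPM in Ex2 against 61.3), SMAD6 (20.5 against 35.6) and BAMBI (26.4 against 17.7). The change from naive to day 4 in N2B27 was larger in Ex2 for 3 of 9 (6.48%): ID1 by log2 1.73 ± 0.21 (adjusted p = 1.3e-06), ID2 by 1.17 ± 0.33 (adjusted p = 0.016) and BAMBI by 1.10 ± 0.26 (adjusted p = 0.0057). The BAMBI term was 0.84 without replicate 1 of the Ex2 naive cells (adjusted p = 0.066). The ID2 term lost its call without that library (0.067), replicate 2 of the Ex1 naive cells on Geltrex (0.163), or replicate 2 of N2B27 day 4 in Ex1 (0.063) or Ex2 (0.138).

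Across the rest of the pathway, 74 further genes in 6 roles were listed and 52 were tested. At day 8 against naive cells, 26 were called in N2B27 (22 higher), 28 in E8 (18 higher) and 26 in mTeSR (19 higher), where 23.9%, 27.5% and 25.1% of all genes were called, with a median log2 fold change of 0.70, 0.41 and 0.52. The median over all genes was -0.03, 0.0024 and -0.02. Of 13 secreted antagonists and modulators tested, 9, 10 and 9 were called in N2B27, E8 and mTeSR, with 8, 9 and 8 of these higher. Of 13 other BMP-responsive genes, N2B27 called 11, all but 1 of them higher. E8 called 10, of which 4 fell, and mTeSR called 7, of which 2 fell. Of 10 receptors and co-receptors 3, 5 and 6 were called (2, 2 and 3 higher), of 4 other ligands 2, 2 and 3, of 8 intracellular inhibitors 0, 1 and 0, and of 4 signal transducers 1, 0 and 1, each time SMAD9 (log2 2.23 ± 0.46 in N2B27 and 2.31 ± 0.48 in mTeSR), which is named after its values were seen. Among the transducers of BMP signals, SMAD1 was at 17.2 to 22.8 CPM in the naive groups and at 19.2, 27.4 and 22.4 in N2B27, E8 and mTeSR at day 8. SMAD5 was 110 to 116 CPM in the naive groups and 142 ± 25.2, 95.2 ± 0.868 and 106 ± 16.3 at day 8. Neither was called.

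Among receptors, BMPR1A, a type I receptor for BMP2 and BMP4, rose from 14.7 to 27.3 CPM in the naive groups to 75.6 ± 1.87 (N2B27), 88.3 ± 8.36 (E8) and 83.9 ± 1.99 (mTeSR). The co-receptor RGMB rose to 31.0, 29.3 and 37.3 CPM, and the co-receptor TGFBR3 fell from 96.9 to 130 CPM in the naive groups to 39.1, 19.3 and 23.0. ACVR1, another type I receptor, fell by log2 1.24 ± 0.25 in E8 and by 1.52 ± 0.27 in mTeSR. GDF11, a ligand of the Activin branch, fell from 39.3 to 78.3 CPM to 14.0, 11.8 and 19.7. GDF3, a ligand of naive and primed pluripotent cells, was at 380 to 406 CPM in the naive groups and 269 ± 18.1, 235 ± 66.4 and 372 ± 8.59 at day 8, and was not called. CTDSP1, a phosphatase listed with the intracellular inhibitors, fell in E8 by log2 1.51 ± 0.18.

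Of the secreted antagonists, NOG, which traps BMP2, BMP4 and BMP7, was called higher than in naive cells on every day of every medium. It was 19.3 ± 6.35 CPM in N2B27, 12.2 ± 2.60 in mTeSR and 1.08 ± 0.469 in E8 at day 8, against 4 counts over the 6 naive libraries. That was 121-fold above naive cells in N2B27 (counting interval 46.4 to 448), 77.7-fold in mTeSR (29.3 to 292) and 6.69-fold in E8 (1.93 to 29.2). E8 was lower than N2B27 at day 8 (log2 -4.16 ± 0.42, adjusted p = 1.1e-08), and mTeSR was not called against N2B27 (-0.66 ± 0.31, adjusted p = 0.190). CER1, an inhibitor of Nodal and BMP, was at 0 in all 6 naive libraries and at 31.7 ± 4.43 CPM in N2B27, 36.3 ± 4.68 in mTeSR and 2.61 ± 0.0231 in E8. Set against a floor of 3 counts over the naive libraries, it was at least 268-fold higher in N2B27, 311-fold in mTeSR and 22.3-fold in E8. FST rose to 57.0, 36.5 and 45.4 CPM and CRIM1 to 61.8, 94.3 and 62.0 in N2B27, E8 and mTeSR. CHRD was below 1 CPM in the naive and day 8 groups.

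Of the 13 other BMP-responsive genes, 10 were called lower in E8 than in N2B27 at day 8 (7.29% of all genes called in either direction) and 7 in mTeSR (3.8%), with none called higher. Of the 10, GATA2, GATA3 and CDX2 are also on the trophectoderm list and ISL1, TFAP2A and HAND1 on the amnion list, and the sums of hypoblast or endoderm and of streak or mesoderm markers given above were likewise lower in E8 and mTeSR. The part of these cell types in the counts was not tested. MSX2 was 38.1 ± 6.18 CPM in N2B27 at day 8, 9.60 ± 2.59 in E8 and 13.4 ± 0.298 in mTeSR, and MSX1 was 21.4 ± 3.41, 4.65 ± 0.580 and 5.50 ± 0.661. GATA3 was 36.7 ± 3.87, 12.6 ± 3.20 and 5.10 ± 0.304 CPM. All of these differences from N2B27 were called, from log2 -1.51 ± 0.22 (MSX2 in mTeSR, adjusted p = 2.1e-05) to -2.84 ± 0.28 (GATA3 in mTeSR, adjusted p = 2.1e-08). ID4 was 17.9 ± 1.29, 27.9 ± 3.16 and 13.7 ± 1.27 CPM with the difference of E8 from N2B27 not called (log2 0.63 ± 0.25, adjusted p = 0.074). DLX3 fell from 17.6 to 21.7 CPM in the naive groups to 1.38, 0.634 and 0.547. At day 4 of Ex2, GATA3 was lower in XAV than in N2B27 (log2 -1.18 ± 0.24, adjusted p = 0.0038), as was GREM1 (-1.12 ± 0.19, adjusted p = 0.00058), and in FAX no gene of the list was called.

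The genes whose group means were most like each member's, by Pearson r of log2 CPM over the 19 groups among 9043 genes that reached 20 CPM in some group, are given as a description, since most groups share the change out of the naive state. They were SFRP1 (0.90) and TMEM164 (0.90) for BMP2, NET1 (0.96) and RGS5 (0.96) for BMP4, and SALL2 (0.99) and RAB31 (0.99) for BMP7. For the targets they were RUNX1T1 (0.93) and FP236241.1 (0.91) for ID1, COL5A2 (0.94) and KRT19 (0.93) for ID2, and HK1 (0.98) and STARD8 (0.98) for ID3. For the inhibitors they were DEPDC1B (0.89) and GATA3 (0.86) for BAMBI, RAB31 (0.97) and SALL2 (0.97) for SMAD6, and PCAT14 (0.95) and PDGFA (0.94) for SMAD7.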

How the data were processed

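Libraries were made with the QuantSeq 3′ mRNA-seq kit. The authors used nf-core/rnaseq with STAR 2.7.10a and Salmon 1.9.0 on hg38 and tximport for gene-level estimates, and deposited whole-number counts per gene for 38 libraries, without normalization. How the estimates became whole, and whether they were adjusted for transcript length, is not given in the sources used here.

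From these counts, filterByExpr kept 16674 genes, holding 99.6% of all counts, and libraries were scaled by TMM. The quasi-likelihood test of edgeR 4.0.16 (R 4.3.3) was fitted with the 6 naive libraries pooled for comparisons with naive cells (N2B27 day 4 pooled over both experiments) and with 19 groups for all others. Adjusted p-values are Benjamini-Hochberg over all genes tested, and SE is the fold change divided by the root of F. Calls needed an adjusted p below 0.05 and a log2 fold change above 1 in size, the study's thresholds; the joint test over days used the adjusted p alone. Intervals from counts are 95% exact binomial and cover counting error only.

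The members and gene lists were chosen with earlier results of these data known. All 9 members are named everywhere; of each role of the pathway list, up to 4 called genes with the largest change at day 8 and at least 20 CPM in some group are named, with 9 others (NOG, CHRD, CER1, GDF3, BMPR1A, SMAD1, SMAD5, ID4, MSX2) by level. GREM1 and SMAD9 were named after their values were seen. A gene that this rule selects is not reported here. Groups came from the sample titles. Scripts were tested on simulated counts.

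Alternatives were DESeq2 1.42.0, other scalings and filters, a replicate block, a library score as covariate, other naive libraries, the compared libraries alone, the adjusted p alone, and leaving out each library.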

Additional observations from a re-analysis of the deposited data

Results flagged for a closer look

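No member had a single library far from the others by Dixon's test, in 18 tests, where chance alone gives about 1 in 20. These were 1 for each of the 9 genes over the 6 naive libraries and over the 4 of N2B27 at day 4, sets that pool the experiments. Groups of 2 libraries cannot be tested this way. Libraries that are low together, as for ID1 in naive cells of Ex2 (17.1 and 24.9 CPM), can hide each other. The naive libraries pool 3 groups that differ in some members.

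The following changes differed between groups by a test of the difference itself. From day 4 to day 8, the rise in E8 fell short of that in N2B27 by log2 -3.77 for BMP2, -2.27 for ID2 and -1.22 for ID3. The change in mTeSR fell short by -1.74 for ID2, -1.23 for ID3 and -1.40 for BAMBI, which was called higher in N2B27 and was not called in mTeSR (log2 -0.39, adjusted p = 0.112 by edgeR). From naive cells to N2B27 day 4, the change was larger in Ex2 than in Ex1 by log2 1.73 for ID1, 1.17 for ID2 and 1.10 for BAMBI. The course over days 2 to 8 differed between E8 and N2B27 with an adjusted p of 5.1e-06 for BMP2, 5.1e-05 for BMP4, 2.5e-06 for ID2, 3.2e-06 for ID3 and 0.016 for BAMBI (edgeR). No explanation was weighed for any of these.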

How the results depend on the processing

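The dependence was followed for 154 member results, the 136 called ones and some uncalled ones picked for printing. Of these, 125 kept their direction and side of the threshold under all of up to 49 alternatives, each of 38 libraries left out among them. Over all settings these results had 53 losses and 16 gains of a call and 1 reversal: BMP2 in N2B27 at day 8 against the naive libraries of the same experiment gave -0.10. Gains among other uncalled results, such as BAMBI in XAV and FAX, are not in these numbers. With the naive libraries on Geltrex only, all member calls against naive cells rose from 100 to 111. They fell to 92 when each group was set against naive cells from its own experiment. With the adjusted p alone, member calls between media rose from 12 to 30 and between experiments from 6 to 10. Leaving out 1 library at a time gave 94 to 109 member calls against naive cells (100 with all), 11 to 13 between media, 2 in XAV and FAX, 9 to 10 from day 4 to day 8, 5 to 7 for its difference between media, 4 to 6 for the course, 0 between coatings and 3 to 6 between experiments. The pathway list gave 312 to 320 calls (317 with all). Between experiments, the low value of 3 came without replicate 1 of the Ex2 naive cells.

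Replicate numbers did not pair the samples: the correlation of same-numbered deviations over 171 pairs of groups ran from -0.54 to 0.45 (median 0.0012). A replicate block left member calls against naive cells at 100, between media at 12 and from day 4 to day 8 at 10, and moved no other member count.

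Counts over all genes that moved by more than 1.5 times were as follows. E8 against N2B27 went from 758 to 409 with the compared libraries alone and to 467 with DESeq2 at day 2, from 280 to 6 and 144 at day 3, and from 415 to 657 and 256 at day 4. At day 8 it went from 1216 to 799 with the compared libraries alone. mTeSR against N2B27 went with DESeq2 from 263 to 162 at day 4 and from 634 to 410 at day 8. mTeSR against E8 went from 14 to 9 with library totals, 58 with no filter, 30 with the library score and 26 without the 4 lowest-scoring libraries at day 4, from 184 to 345 alone and 122 with DESeq2 at day 6, and from 885 to 450 alone at day 8. XAV against N2B27 went from 95 to 165 alone, FAX against N2B27 from 56 to 133 alone and 88 with no filter, and FAX against XAV from 2 to 24 alone, 23 with no filter, and 1 with DESeq2 or without the 4 libraries. The coatings went from 8 to 1 alone, 106 with no filter and 51 without the 4 libraries, and N2B27 day 4 between experiments from 168 to 98 with DESeq2. With the library score, day 2 against naive cells went from 2694 to 1703 in N2B27 and from 4107 to 2468 in E8. The cause was not tested. Leaving out the 4 libraries was chosen after seeing the data. It removes E8 day 2, so the course was not run.

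BMP2 at days 2 to 4 and in E8 at day 6, and BMP7 and ID3 in naive cells, rest on 11 or fewer counts per library, which limits their fold changes.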
